A study of Mus musculus with 4 samples.

Results

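The transcription factors that pattern the dorsoventral axis of the telencephalon, Pax6, Emx1, Emx2, Lhx2, Otx1, Otx2, Gsx1, Gsx2 and Nkx6-2, were followed in single-cell RNA sequencing counts of the embryonic mouse forebrain. They were taken by gene symbol, and all 9 of 9 were found among the 43346 features of the files. Each of the 4 libraries, made by droplet capture (10x Genomics), holds cells of 1 region of E12.5 forebrain from wild-type C57BL/6 embryos. CTX is the cortex, and LGE, MGE and CGE are the lateral, medial and caudal ganglionic eminences, the swellings of the ventral forebrain. No transgene, treatment or mutation was present in any group, tissue was pooled over embryos before dissociation, and no region had a replicate library. The labels describe a sort for live cells (DRAQ5+/DAPI-), whereas by the methods section wild-type cells were not sorted before counting, and this was not settled.

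The early telencephalon is divided by transcription factors that each mark a territory of dividing progenitors. Pax6, Emx1 and Emx2 are homeodomain factors of the dorsal territory, which produces glutamatergic neurons, and Lhx2, a LIM homeodomain factor, is needed for cortical identity. Gsx1 and Gsx2 are homeodomain factors of the ventral territory, which produces GABAergic neurons, and Gsx2 and Pax6 are known to oppose each other at the border between cortex and LGE. Otx1 and Otx2 are related homeodomain factors of forebrain and midbrain patterning, and Nkx6-2 is a homeodomain factor known from the ventral neural tube and from the border between LGE and MGE.

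Progenitor-like cells were taken as those with Nes (Nestin, an intermediate filament of neural progenitors) above 1.5 on the scale ln(1 + UMIs per 10000), where a UMI (unique molecular identifier) marks 1 captured RNA molecule. These high-Nes cells numbered 903 (CTX), 660 (LGE), 541 (MGE) and 182 (CGE). Young neuronal cells were taken as those with Dcx (doublecortin, a microtubule protein of migrating neurons) above the same limit. The high-Dcx cells numbered 804, 2121, 2202 and 2288 in the same order. Summed counts ranged from 1619792 UMIs (CGE) to 7713922 UMIs (CTX) over high-Nes cells and from 6773643 UMIs (CTX) to 15829304 UMIs (CGE) over high-Dcx cells, and the median depth was 8139 to 9732 and 6332.5 to 7924 UMIs per cell. The 6 radial glia markers summed to between 3474 and 10308 CPM (UMIs per 1000000) in high-Nes cells and to between 641 and 1436 CPM in high-Dcx cells, and the 5 young neuron markers to between 338 and 979 CPM and between 4961 and 6456 CPM. Non-neural cells made up 1 to 8 of the high-Nes cells of a library, and the 6 microglial markers summed to 25.8 CPM (CTX), 1.27 CPM (LGE), 56.7 CPM (MGE) and 143 CPM (CGE) there. Pairs of libraries shared 4 to 15 barcodes, at most 0.279% of the smaller library.

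All 9 genes are annotated as protein-coding in GENCODE M21 on GRCm38 (mm10), the build of the counts. Pax6 spans chr2:105668900-105697364 and Lhx2 spans chr2:38339281-38369733, both on the plus strand. Emx1 spans chr6:85187438-85204462 and Emx2 spans chr19:59458372-59465357, both on the plus strand. Otx1 spans chr11:21994764-22002897 and Otx2 spans chr14:48657677-48673819, both on the minus strand. The paralogs Gsx1 (chr5:147188696-147190947) and Gsx2 (chr5:75075601-75077893) lie far apart on the plus strand of the same chromosome, and Nkx6-2 spans chr7:139579376-139582797 on the minus strand. Antisense genes overlap Pax6 (Pax6os1), Emx2 (Emx2os), Lhx2 (Gm27197 and Gm13584), Otx2 (Otx2os1) and Nkx6-2 (Inpp5a). The counting used Cell Ranger at its defaults, which assign a read to a gene only on the sense strand. Otx2 also overlaps Gm49154 on its own strand, and its values are uncertain to that extent.

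The promoters of Gsx1, Gsx2 and Nkx6-2 are printed because these 3 ventral genes gave no UMI in the high-Nes cells of CTX. Each line holds the 250 bases before the gene start that RefSeq gives on GRCm38.p6, read 5′ to 3′ on the strand of the gene, and capitals mark the motif TATAAA.

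Gsx1: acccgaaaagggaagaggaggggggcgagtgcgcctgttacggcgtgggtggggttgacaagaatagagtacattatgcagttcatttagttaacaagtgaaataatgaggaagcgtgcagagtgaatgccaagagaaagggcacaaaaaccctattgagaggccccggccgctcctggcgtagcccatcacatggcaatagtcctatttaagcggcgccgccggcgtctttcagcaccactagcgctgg

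Gsx2: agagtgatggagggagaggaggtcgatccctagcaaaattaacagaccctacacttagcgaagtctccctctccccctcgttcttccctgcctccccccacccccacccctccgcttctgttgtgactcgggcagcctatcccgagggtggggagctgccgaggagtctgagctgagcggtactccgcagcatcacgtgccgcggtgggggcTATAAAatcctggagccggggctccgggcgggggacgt

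Nkx6-2: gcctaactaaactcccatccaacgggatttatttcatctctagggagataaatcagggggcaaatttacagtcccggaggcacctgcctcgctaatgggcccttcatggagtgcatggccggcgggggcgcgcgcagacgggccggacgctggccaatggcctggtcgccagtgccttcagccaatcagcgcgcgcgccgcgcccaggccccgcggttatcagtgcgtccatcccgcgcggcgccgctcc

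These windows are chr5:147188446-147188695 on the plus strand for Gsx1, chr5:75075351-75075600 on the plus strand for Gsx2 and chr7:139582798-139583047 on the minus strand for Nkx6-2. GC content was 54.0% for Gsx1, 63.6% for Gsx2 and 65.2% for Nkx6-2, beside a median of 52.0% over all promoters in the table. The motifs TATAAA and TAATTA (a core that many homeodomain factors can bind) were searched on both strands in windows of this length. TATAAA was present in the Gsx2 window, 38 bases before the start, and in neither of the other windows shown. It was held by 13.0% of 27025 promoters, and TAATTA by 4.90%. Of the 8 members with a promoter in the table (Otx1 had none), 2 held TATAAA (Otx2 and Gsx2) and 1 held TAATTA (Otx2) in the first promoter listed. A match describes the letters only and is no evidence of binding.

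In high-Nes cells the 5 genes Pax6, Emx1, Emx2, Lhx2 and Otx1 had their highest level in CTX, by 2-fold or more over the next library. Otx2, Gsx1 and Nkx6-2 had their highest level in MGE, and Gsx2 in CGE, with Gsx2, Gsx1, Otx2 and Nkx6-2 all at 0 UMIs in CTX. Levels are CPM of the UMIs summed over cells, with exact Poisson 95% intervals in brackets. With 1 library per region there is no test between regions, and these intervals cover counting error only. In such sums, a smaller share of cells with the RNA and less RNA per cell cannot be told apart.

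Pax6, which holds cortical progenitors in their dorsal program, stood at 318 CPM [306, 331] for CTX, 63.7 CPM [57.2, 70.7] for LGE, 0.97 CPM [0.315, 2.26] for MGE and 76.6 CPM [63.7, 91.3] for CGE. The MGE level came from 5 UMIs in 541 cells. CGE and LGE did not differ beyond counting error, with a ratio of 1.20 [0.971, 1.48], whereas CTX was 4.16-fold above CGE [3.47, 5.02]. Emx1, whose expression marks the cortical primordium, was at 164 CPM [155, 174] for CTX and at 0 UMIs in LGE, MGE and CGE. A count of 0 allows up to 3 UMIs, which is 0.546 CPM for LGE, 0.582 CPM for MGE and 1.85 CPM for CGE. Of these 9 genes, it was the one not detected in high-Nes cells of all 3 eminences at this depth.

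Its paralog Emx2, a regulator of cortical area identity, was not restricted in this way. It stood at 233 CPM [222, 244] for CTX, 60.2 CPM [53.9, 67.1] for LGE, 7.76 CPM [5.54, 10.6] for MGE and 27.8 CPM [20.3, 37.2] for CGE. Every step in the order CTX, LGE, CGE, MGE exceeded counting error, with ratios of 3.87, 2.17 and 3.58. Lhx2, needed for cortical identity, was present in every library, at 1031 CPM [1008, 1054] for CTX, 434 CPM [417, 452] for LGE, 243 CPM [230, 257] for MGE and 262 CPM [238, 289] for CGE. The ratio of CTX to LGE was 2.37 [2.27, 2.49], while CGE over MGE gave 1.08 [0.964, 1.20] and did not exceed counting error. Otx1 stood at 101 CPM [94.4, 109] for CTX, 40.7 CPM [31.5, 51.8] for CGE, 20.4 CPM [16.8, 24.5] for LGE and 3.88 CPM [2.37, 5.99] for MGE. All 3 steps of Otx1 exceeded counting error, and CTX was 2.49-fold above CGE [1.93, 3.25].

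Otx2, by contrast with Otx1, gave 0 UMIs in CTX, which allows up to 0.389 CPM there. It stood at 31.8 CPM [27.3, 36.9] for LGE, 48.5 CPM [42.7, 54.9] for MGE and 8.64 CPM [4.73, 14.5] for CGE. MGE over LGE was 1.52 [1.25, 1.86] and LGE over CGE was 3.68 [2.14, 6.88], so the paralogs ran in opposite orders over MGE, LGE and CGE. Nkx6-2 followed the order of Otx2, with 26.8 CPM [22.5, 31.6] for MGE, 14.4 CPM [11.4, 17.9] for LGE, 1.23 CPM [0.150, 4.46] for CGE and 0 UMIs in CTX. The CGE level rested on 2 UMIs. MGE exceeded LGE by 1.86-fold [1.40, 2.49] for Nkx6-2.

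Gsx2, the Gsx paralog best known from LGE progenitors, stood at 75.3 CPM [62.5, 89.9] for CGE, 61.7 CPM [55.3, 68.6] for LGE, 38.4 CPM [33.3, 44.2] for MGE and 0 UMIs in CTX. CGE and LGE did not differ beyond counting error (1.22 [0.984, 1.51]), and LGE over MGE was 1.61 [1.34, 1.92]. Gsx1 was scarce throughout, with 48 UMIs in MGE (9.31 CPM [6.87, 12.3]), 11 UMIs in CGE (6.79 CPM [3.39, 12.2]), 4 UMIs in LGE (0.728 CPM [0.198, 1.86]) and 0 in CTX. MGE and CGE could not be ordered for Gsx1, with a ratio of 1.37 [0.702, 2.93], whereas CGE was 9.33-fold above LGE [2.76, 40.2]. The paralogs thus differed in LGE, which was close to CGE for Gsx2 and far below it for Gsx1. Over all kept cells of MGE, Gsx1 was at 15.5 CPM [14.3, 16.9], above its level in either class, and 580 UMIs were counted there beside the 48 in high-Nes cells and 44 in high-Dcx cells.

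**Figure D1:**
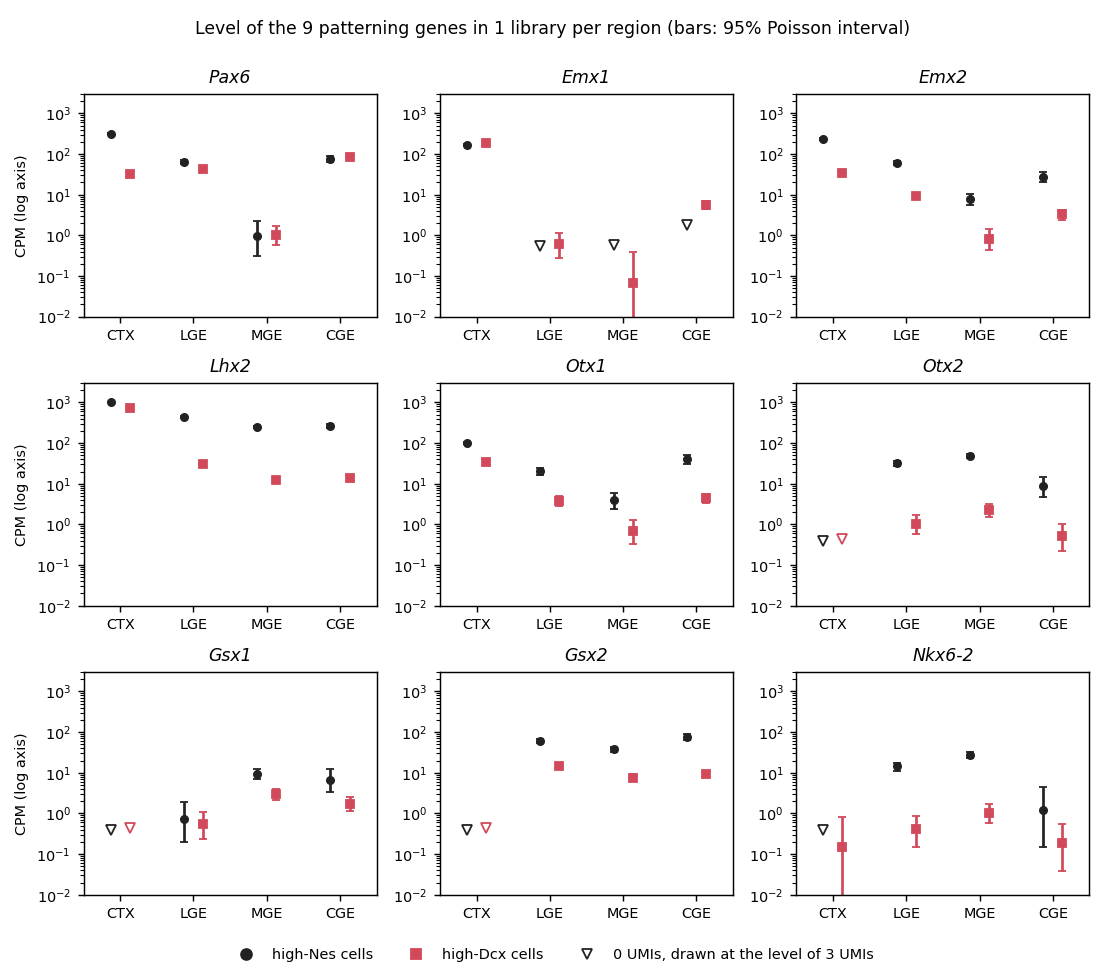
Level of each of the 9 genes (log axis, CPM) in high-Nes cells (black circles) and high-Dcx cells (red squares) of the CTX, LGE, MGE and CGE libraries, with bars for the exact 95% Poisson interval and open triangles for 0 UMIs, drawn at the level of 3 UMIs. Pax6, Emx1, Emx2, Lhx2 and Otx1 are highest in CTX among high-Nes cells, while Otx2, Gsx1 and Gsx2 show open triangles in CTX for both classes.

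These patterns were set beside those of all genes with a mean of 10 CPM or more over the 4 libraries, a limit that 8 of the 9 members reached (Gsx1 did not). Of the 8689 genes tested in this way, 1.15% were highest in high-Nes cells of CTX by 2-fold or more over the next library, and 5 of the 8 members were among them. The corresponding shares were 0.322% for LGE, 0.219% for MGE and 0.737% for CGE, with 0 of the 8 members in each case. Within the eminences, Pax6, Emx2 and Otx1 were 2-fold or more higher in LGE than in MGE (background 1.93%), and the same 3 genes were 2-fold or more higher in CGE than in MGE (background 2.59%). Emx2, Otx2 and Nkx6-2 were 2-fold or more higher in LGE than in CGE (background 1.75%), and Otx2 and Nkx6-2 were so in MGE over CGE (background 1.48%). None of the 8 was 2-fold higher in MGE than in LGE (background 1.43%) or in CGE than in LGE (background 2.57%). Otx1 was just under that limit in CGE over LGE (1.999 [1.45, 2.73]), and the count of members for that pair was 1 or 2 in 4 of 7 alternatives, while that for MGE over LGE was 1 in 2 of them. With 1 library per region, these counts describe 4 libraries.

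Other dorsoventral regulators gave a setting for these levels. Of 22 listed, 17 reached the same mean level, and among them the highest level lay in CTX for 4, LGE for 6, MGE for 3 and CGE for 4. By 2-fold or more over the next library, it lay in CTX for 2, LGE for 0, MGE for 3 and CGE for 2. Nkx2-1, the defining factor of MGE progenitors, stood at 555 CPM for MGE and 32.1 CPM for CGE, 3 UMIs in LGE and 0 UMIs in CTX. The MGE library thus held its defining factor while Pax6 was at 5 UMIs there.

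Levels in cells that should lack these genes were taken as a rough guide to the free RNA in each library. Other sources of such UMIs, such as doublets, were not tested. In CTX, 60 cells with endothelial, pericyte or microglial markers gave Lhx2 at 112 CPM [86.8, 143], Pax6 at 39.1 CPM [24.8, 58.7], Emx2 at 23.8 CPM [13.0, 40.0] and Emx1 at 17.01 CPM [8.16, 31.3]. Each lay well below its level in the high-Nes cells of CTX. The same cells of LGE, MGE and CGE held at most 4 UMIs of any member. Red blood cell barcodes of CTX, in which at least 50% of UMIs were globin, gave Lhx2 at 266 CPM, Pax6 at 79.7 CPM, Emx2 at 62.0 CPM and Emx1 at 44.3 CPM, relative to UMIs outside the globin genes. These values exceed those of the non-neural cells, so the amount of free RNA is not fixed by either.

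For shares of cells with at least 1 UMI, 3000 UMIs were drawn from every cell, which left 872, 637, 536 and 177 high-Nes cells in CTX, LGE, MGE and CGE. Lhx2 was detected in 92.3% [90.3, 94.0] of these cells in CTX and in 62.3%, 45.3% and 47.5% in LGE, MGE and CGE, with exact binomial 95% intervals. Pax6 was detected in 57.6% [54.2, 60.9] in CTX, 16.3% in LGE, 0.187% in MGE (1 cell) and 14.7% in CGE. In the non-neural cells of CTX, with a median depth of 9254.5 UMIs beside 8420 for high-Nes cells, the shares were 18.6% for Lhx2 and 6.78% for Pax6. Gsx2 was detected in 22.0% [16.2, 28.9] in CGE, 16.5% in LGE, 11.8% in MGE and in 0 of 872 cells in CTX, which allows a share of up to 0.344%. Otx2 was detected in 14.6% in MGE and 6.91% in LGE, and Nkx6-2 in 5.60% and 2.98%. At the full depth of each cell, Pax6 was detected in 85.6% of the high-Nes cells of CTX.

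Mutual exclusion within a region was examined by counting the cells that held both genes of a pair and dividing by the number that the product of their shares gives. A ratio of 1 means that the genes met as often as independent genes would, and only pairs with 5 or more cells by that product were read. Between the cortex and the eminences the separation was complete for some pairs, since Emx1 gave no UMI in high-Nes cells of the eminences and Gsx1, Gsx2, Otx2 and Nkx6-2 gave none in those of CTX. Within a region, no pair of members with 5 or more expected cells fell below 0.5 of the expected count in any of the 4 libraries. Such pairs numbered 10 (CTX), 12 (LGE), 5 (MGE) and 6 (CGE), with ratios of 0.976 to 1.20, 0.875 to 1.81, 0.764 to 1.29 and 0.840 to 1.30. Pairs under that limit lay on both sides of 1, and exclusion was not judged for them. Gsx2 and Nkx6-2 met in 1 cell of LGE (3.13 expected) and 1 cell of MGE (3.53 expected). Emx2 and Nkx6-2 met in 7 cells of LGE (2.86 expected) and 3 cells of MGE (0.448 expected). Pairs of a member with the general progenitor genes Sox2, Hes1 or Hes5 ran from 0.554 to 1.51 over the 4 libraries. In LGE, 17 of 18 of these reference pairs were above 1 (median 1.10), as were 11 of the 12 pairs of members (median 1.12). The 1 pair of members below 1 in LGE was Pax6 with Gsx2.

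Pax6 and Gsx2, the pair known for mutual repression, met in 15 high-Nes cells of LGE, where 17.1 were expected (ratio 0.875). Gsx2 was detected in 14.4% [8.30, 22.7] of the LGE cells with Pax6 and in 16.9% of those without it. In CGE they met in 7 cells, where 5.73 were expected, and Gsx2 was detected in 26.9% [11.6, 47.8] of the cells with Pax6 and in 21.2% of those without. Neither difference exceeded counting error, and with no UMI of either gene in most cells a weak exclusion was not detectable at this depth.

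Pairs of dorsal genes met more often than expected in places. In LGE, Emx2 was detected in 25.0% [17.03, 34.4] of the cells with Pax6 and in 13.1% of those without, and 26 cells held both where 15.7 were expected. In CTX, Otx1 was detected in 32.1% [28.0, 36.4] of the cells with Pax6 and in 19.5% of those without, and Emx2 in 51.2% [46.7, 55.6] and 41.1%. The intervals of the shares with and without Pax6 did not overlap in these 3 cases. Emx1 did not move with Pax6 in CTX, where 186 cells held both and 185 were expected. In LGE, Otx2 was detected in 10.3% [7.51, 13.7] of the cells with Lhx2 and in 1.25% of those without.

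The Emx genes and the group of Gsx1, Gsx2 and Nkx6-2 were also counted as groups. In LGE, 24 of 637 high-Nes cells (3.77% [2.43, 5.55]) held a UMI from both groups, where 18.5 were expected. The group joins unlike pairs, since Emx2 met Gsx2 in 17 of these LGE cells (15.8 expected) and Nkx6-2 in 7 (2.86 expected). In CTX, where Gsx1, Gsx2 and Nkx6-2 gave no UMI, the count of 0 of 872 cells was fixed beforehand (0 expected). In MGE, 4 of 536 cells held both (1.52 expected), and in CGE 2 of 177 did (4.07 expected), numbers below the limit of 5 expected cells. The mean number of members detected per thinned high-Nes cell was 2.60 (CTX), 1.25 (LGE), 0.825 (MGE) and 1.13 (CGE).

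Ratios under 0.5 did appear between members and other regulators. Nkx6-2 and Dlx2, a driver of GABAergic differentiation, met in 2 high-Nes cells of MGE where 16.5 were expected (ratio 0.121). Dlx2 was detected in 6.67% [0.818, 22.1] of the 30 MGE cells with Nkx6-2 and in 57.9% of those without it. Nr2f1, an orphan nuclear receptor, was detected in 73.3% [54.1, 87.7] of the Nkx6-2 cells and in 41.7% of the rest. In LGE the same direction held for Nkx6-2 and Dlx2, with 6 cells where 11.7 were expected (31.6% [12.6, 56.6] and 62.5%).

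Gsx1 and Gsx2 showed the opposite pattern in MGE. Dlx2 was detected in 91.7% [61.5, 99.8] of the 12 MGE cells with Gsx1 and in 54.2% of those without it. It was detected in 73.0% [60.3, 83.4] of the MGE cells with Gsx2 and in 52.6% of those without. Cells with Gsx genes were thus richer, and cells with Nkx6-2 poorer, in Dlx2 within the same MGE library.

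In LGE, Emx2 and Sp8, a zinc finger factor of dorsal LGE, met in 1 cell where 7.38 were expected (ratio 0.135). Sp8 was detected in 1.04% [0.0264, 5.67] of the LGE cells with Emx2 and in 8.87% of those without, and in 4.28% [2.51, 6.77] of those with Lhx2 and 13.3% of those without. Gli3, a repressor in Sonic hedgehog signalling, showed the reverse. It was detected in 47.9% [37.6, 58.4] of the LGE cells with Emx2 and in 20.1% of those without, and in 47.7% [32.5, 63.3] of those with Otx2 and 22.6% of those without. Hes5, a Notch target of radial glia, also accompanied Emx2 in LGE (75.0% and 53.2%), and its part in these shares was not tested.

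**Figure D2:**
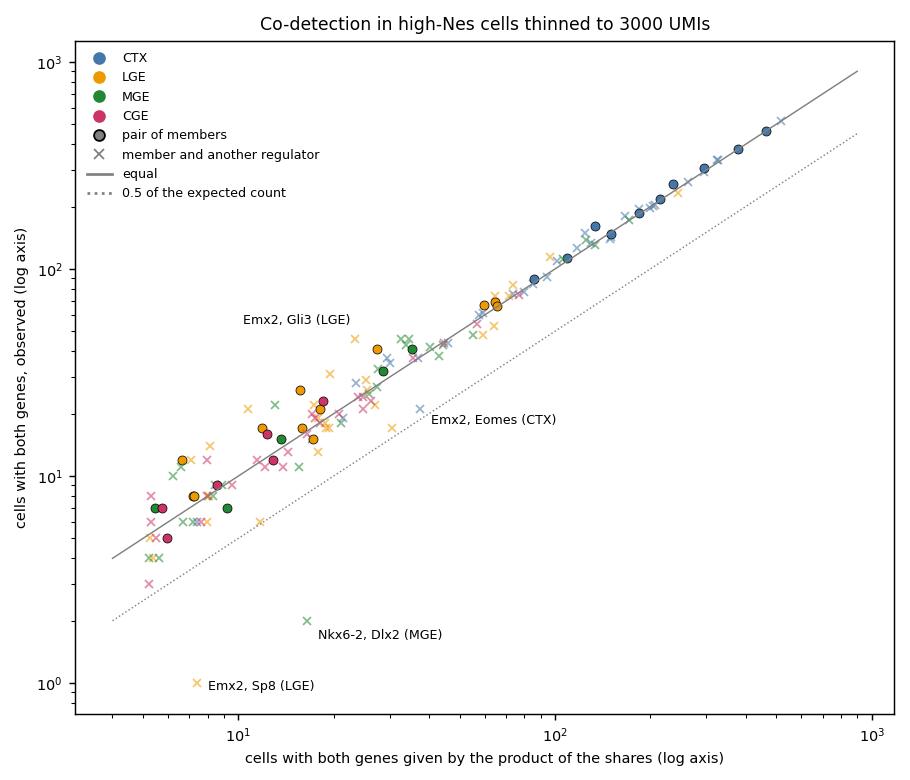
Number of high-Nes cells with both genes of a pair (log axis) against the number given by the product of their shares (log axis), for pairs with 5 or more expected cells, coloured by library, with circles for pairs of members and crosses for a member with another regulator. The circles lie close to the solid line of equality and none lies under the dotted line at 0.5 of the expected count, while crosses under that line include Nkx6-2 with Dlx2 (2 cells, 16.5 expected) and Emx2 with Sp8 (1 cell, 7.38 expected).

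Within CTX, dorsal genes were also read by the number of UMIs of Pax6 or Emx2 per thinned cell, with the level of the other gene taken from all UMIs of those cells. Eomes, a marker of intermediate progenitors, stood at 71.0 CPM [62.2, 80.8] in cells with 0 Pax6 UMIs, 56.8 CPM in those with 1 and 26.9 CPM [20.2, 35.2] in those with 2 or more. By Emx2 it ran from 78.0 CPM [69.6, 87.2] through 37.1 CPM to 19.2 CPM [12.7, 28.0]. Neurog2, the proneural factor of cortical progenitors, stood at 388, 262 and 162 CPM over the same 3 steps of Emx2, whereas over the steps of Pax6 it stood at 306, 342 and 274 CPM. Cells with more Emx2 therefore held less of both genes, and cells with more Pax6 held less Eomes without a steady order in Neurog2. Otx1 stood at 83.6 CPM [74.0, 94.2], 103 CPM and 128 CPM [113, 145] over the steps of Pax6. Gsx2, at 0 UMIs in all high-Nes cells of CTX, could not vary over these steps.

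Persistence into young neuronal cells differed among the 9 genes and, for some, among regions. In CPM, Emx1 in CTX was slightly higher in high-Dcx than in high-Nes cells, but its shares of cells overlapped. Pax6 in CGE did not differ in CPM beyond counting error. Lhx2 kept most of its level in CTX and little of it elsewhere. Otx2 and Nkx6-2 kept little in each library where high-Nes cells held 10 or more UMIs. Values below are the CPM in high-Dcx cells as a percentage of that in high-Nes cells of the same library, with exact 95% intervals from the counts. Cells past both limits, 16 (CTX), 75 (LGE), 26 (MGE) and 17 (CGE), are counted in both classes here.

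Lhx2 in high-Dcx cells stood at 717 CPM for CTX, 31.1 CPM for LGE, 12.46 CPM for MGE and 13.6 CPM for CGE. This was 69.6% [67.1, 72.1] of the high-Nes level in CTX, and 7.16% [6.47, 7.92], 5.12% [4.36, 5.99] and 5.20% [4.39, 6.14] in LGE, MGE and CGE. The 3 eminences lay close together and CTX stood apart. The non-neural cells of LGE held 4 UMIs of Lhx2 (21.5 CPM [5.86, 55.1]), an interval that includes the high-Dcx level. The postmitotic high-Dcx cells of LGE described below (MZ gate) held Lhx2 at 8.62 CPM [5.77, 12.4], under the level of all high-Dcx cells. That value also lies within the interval of the non-neural cells, and how much of either level is free RNA was not tested. In CTX, 717 CPM is well above the 112 CPM of the non-neural cells. Emx1 stood at 185 CPM for CTX, 112% [104, 122] of its high-Nes level, and at 9 UMIs in LGE, 1 UMI in MGE and 90 UMIs (5.69 CPM [4.57, 6.99]) in CGE, all from 0 UMIs in high-Nes cells.

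Pax6 in high-Dcx cells stood at 32.5 CPM for CTX, 43.7 CPM for LGE, 1.03 CPM for MGE and 82.8 CPM for CGE. This was 10.2% [8.85, 11.7] of the high-Nes level in CTX and 68.6% [60.1, 78.3] in LGE, and in CGE it was 108% [89.9, 131], an interval that includes no change. With no upper gene limit the direction for CGE turned, with a log2 ratio of -0.29 (CPM + 1) beside 0.11. The order of regions for Pax6 was therefore turned over, with CTX highest in high-Nes cells and CGE highest in high-Dcx cells, where CGE was 1.90-fold above LGE [1.72, 2.09] and 2.55-fold above CTX [2.21, 2.95]. In CTX the high-Dcx level of Pax6 lay within the interval of the non-neural cells (39.1 CPM [24.8, 58.7]), and the share of cells with a UMI was 9.02% [7.11, 11.2] beside 6.78% [1.88, 16.5]. It lay under the level of the red blood cell barcodes (79.7 CPM [47.3, 126]). The MZ gate of CTX held Pax6 at 19.4 CPM [13.3, 27.4], under the level of all high-Dcx cells, and how much of that level is free RNA was not tested. In LGE the non-neural cells held 1 UMI of Pax6 (5.38 CPM [0.136, 30.0]), below its high-Dcx level, and in CGE they held 0, which allows up to 19.1 CPM.

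Over all high-Dcx cells Emx2 kept a like share in every library, with 14.5% [12.6, 16.7] in CTX and, of the eminences, 15.2% [12.4, 18.7] in LGE, 10.6% [5.08, 20.7] in MGE and 11.8% [7.78, 18.0] in CGE. In the MZ gate it stood at 27.3 CPM [19.9, 36.5] for CTX, 1.78 CPM [0.654, 3.88] for LGE, 0.603 CPM [0.124, 1.76] for MGE and 1.55 CPM [0.799, 2.70] for CGE. The likeness is therefore not claimed for postmitotic cells. The Emx2 level of 33.8 CPM in all high-Dcx cells of CTX overlapped that of the non-neural cells there (23.8 CPM [13.0, 40.0]). It was under the value of the red blood cell barcodes (62.0 CPM [33.9, 104]), and how much of it is free RNA was not tested. Otx1 kept 34.8% [30.0, 40.3] in CTX and, of the eminences, 18.7% [13.3, 26.0] in LGE, 17.7% [7.42, 39.7] in MGE and 10.7% [7.52, 15.2] in CGE. CTX kept more of Otx1 than LGE or CGE did, by intervals that did not overlap. Its 35.3 CPM there lay above the 5.10 CPM [1.05, 14.9] of the non-neural cells and within the interval of the red blood cell barcodes (17.7 CPM [4.83, 45.4]).

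The ventral genes were lower in high-Dcx cells of every eminence where high-Nes cells held 10 or more UMIs. Gsx2 stood at 14.6 CPM for LGE, 7.64 CPM for MGE and 9.48 CPM for CGE, which was 23.7% [19.9, 28.2], 19.9% [15.6, 25.2] and 12.6% [9.84, 16.1] of the high-Nes level. The non-neural cells of LGE held 2 UMIs of Gsx2 (10.8 CPM [1.30, 38.9]), an interval that includes its high-Dcx level. Gsx1 kept 32.5% [21.1, 50.01] in MGE and 25.1% [12.1, 56.1] in CGE. Otx2 kept 3.20% [1.76, 5.43] in LGE, 4.54% [3.04, 6.58] in MGE and 5.85% [2.13, 14.9] in CGE. Nkx6-2 kept 2.84% [1.01, 6.46] in LGE and 3.86% [2.10, 6.58] in MGE.

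**Figure D3:**
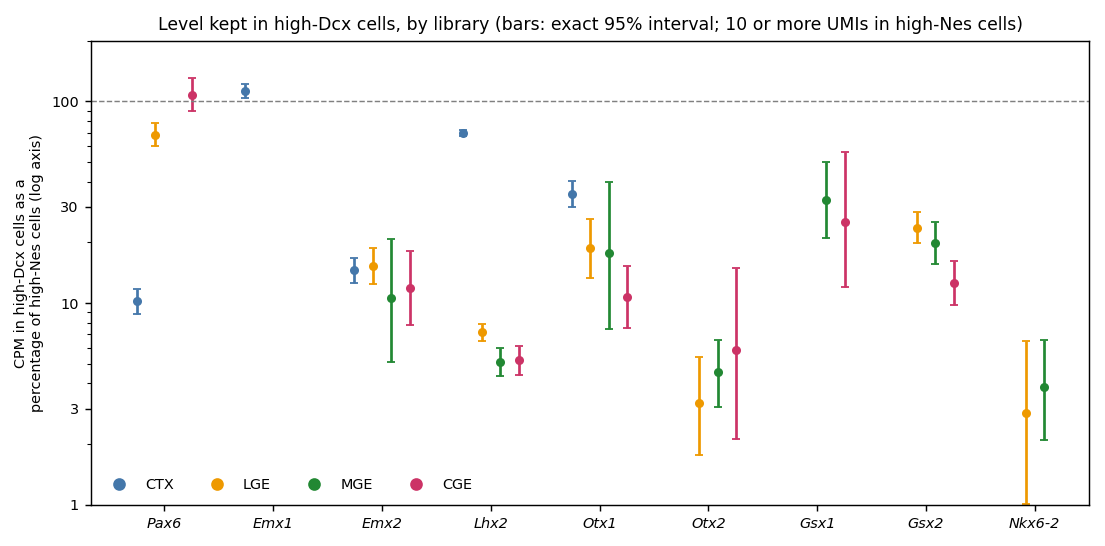
CPM in high-Dcx cells as a percentage of that in high-Nes cells (log axis) for each gene, coloured by library, with bars for the exact 95% interval, where high-Nes cells held 10 or more UMIs, and a dashed line at 100%. Emx1 in CTX lies above the line and the bar of Pax6 in CGE crosses it, Lhx2 in CTX (69.6%) stands apart from Lhx2 in the eminences (5.12% to 7.16%), and Otx2 and Nkx6-2 lie between 2.84% and 5.85%.

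The fall was tested over the 4 libraries with the sums of high-Nes and of high-Dcx cells paired within each library (edgeR quasi-likelihood test, library as a block, cells past both limits left out). A call needed an adjusted p of at most 0.05 and an absolute log2 fold change of at least 0.25. Regions stand in for replicates here, so the test asks about the mean class difference over the libraries, set against its spread among them. It does not ask whether every library shares the change. Otx2, Gsx1 and Gsx2 were at 0 UMIs in both classes of CTX, so their results rest on LGE, MGE and CGE. Of 12330 genes tested, 27.6% were higher in high-Nes cells and 27.8% in high-Dcx cells. Of the 7 members that passed the filter on low counts, 6 were higher in high-Nes cells by edgeR (5 by DESeq2) and 0 were higher in high-Dcx cells by either, and the 6 called were also the ones with an unadjusted p under 0.05. Emx1 and Nkx6-2 did not pass the filter.

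The log2 fold change of high-Dcx over high-Nes sums was -4.56 for Otx2 (SE 0.275, adjusted p = 0.000409), -2.89 for Emx2 (SE 0.121, adjusted p = 0.000144) and -2.45 for Gsx2 (SE 0.225, adjusted p = 0.00115) by edgeR. It was -2.33 for Otx1 (SE 0.315, adjusted p = 0.00197), -3.34 for Lhx2 (SE 0.773, adjusted p = 0.0133) and -1.46 for Gsx1 (SE 0.403, adjusted p = 0.0316) by edgeR. Emx2, with the smallest error, was the gene whose fall over all high-Dcx cells was most alike over the libraries. Lhx2, with the largest error among the genes called, was the one in which CTX stood apart. Pax6 was not called by edgeR (log2 fold change -1.02, SE 0.672, adjusted p = 0.241). Without the CTX library its log2 fold change was -0.09 (adjusted p = 0.705, the highest of a range of 0.137 to 0.705 over the alternatives). Lhx2 lost its call without LGE, without MGE or without CGE. Gsx1 lost its call with doublets kept, by DESeq2, with no filter on low counts and with no library block, and its adjusted p ran from 0.00427 to 0.360 over 11 alternatives. Without the MGE library 3 members were called, with Otx2 and Gsx1 under the filter, and without a library block 1 was.

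The median log2 fold change was -2.45 over the 7 members tested and 0.01 over all genes. Among 22 other dorsoventral regulators, 17 were tested, 7 were higher in high-Nes cells (Gli2, Gli3, Lef1, Nr2e1, Olig1 and Olig2 among them) and the median was -0.69. Emx2os, the antisense neighbour of Emx2, fell by 2.25 on the log2 scale (adjusted p = 0.00196 by edgeR), beside the fall of Emx2.

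High-Dcx cells were further divided by gates that follow the genes named by the study. Cells of a dividing class, here the SVZ gate, held Mki67 and Ccnd2 above 0.5 and lacked Mapt and Rbfox3 above 0.5, and cells of a postmitotic class, the MZ gate, lacked Nes, Hes5, Mki67, Ccnd1 and Ccnd2 above 0.5. The SVZ gate held 18, 417, 219 and 74 cells in CTX, LGE, MGE and CGE, and the MZ gate held 212, 561, 845 and 1207. The 18 CTX cells of the SVZ gate give wide intervals.

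In CPM, Pax6 in CGE stayed level over the classes, at 76.6 CPM in high-Nes cells, 72.6 CPM [54.7, 94.5] in the SVZ gate and 85.1 CPM [78.7, 91.8] in the MZ gate. Its shares of thinned CGE cells were 14.7% [9.83, 20.8], 17.8% [9.84, 28.5] and 10.5% [8.83, 12.4] over these classes. In LGE Pax6 stood at 59.2 CPM [51.6, 67.5] and 46.9 CPM [39.9, 54.9] in the SVZ and MZ gates, and in CTX it was at 149 CPM [86.7, 238] and then 19.4 CPM [13.3, 27.4]. Emx1 in CTX stood at 158 CPM [93.4, 249] and 147 CPM [129, 167], and Lhx2 in CTX at 1015 CPM [839, 1218] and 564 CPM [528, 601]. In LGE, Lhx2 was at 56.5 CPM [49.1, 64.6] in the SVZ gate and was at 8.62 CPM [5.77, 12.4] in the MZ gate. Gsx2 was intermediate in the SVZ gate, with 34.8 CPM [29.1, 41.3] for LGE and 31.7 CPM [20.3, 47.1] for CGE, and low in the MZ gate, with 1.19 CPM [0.324, 3.04] and 5.28 CPM [3.79, 7.17]. Otx2 was at 3 UMIs in the SVZ gate of LGE and 2 UMIs in that of MGE (0.982 CPM [0.119, 3.55]). In the MZ gate it was at 0 UMIs for LGE and 13 UMIs for MGE (2.61 CPM [1.39, 4.47]).

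**Figure D4:**
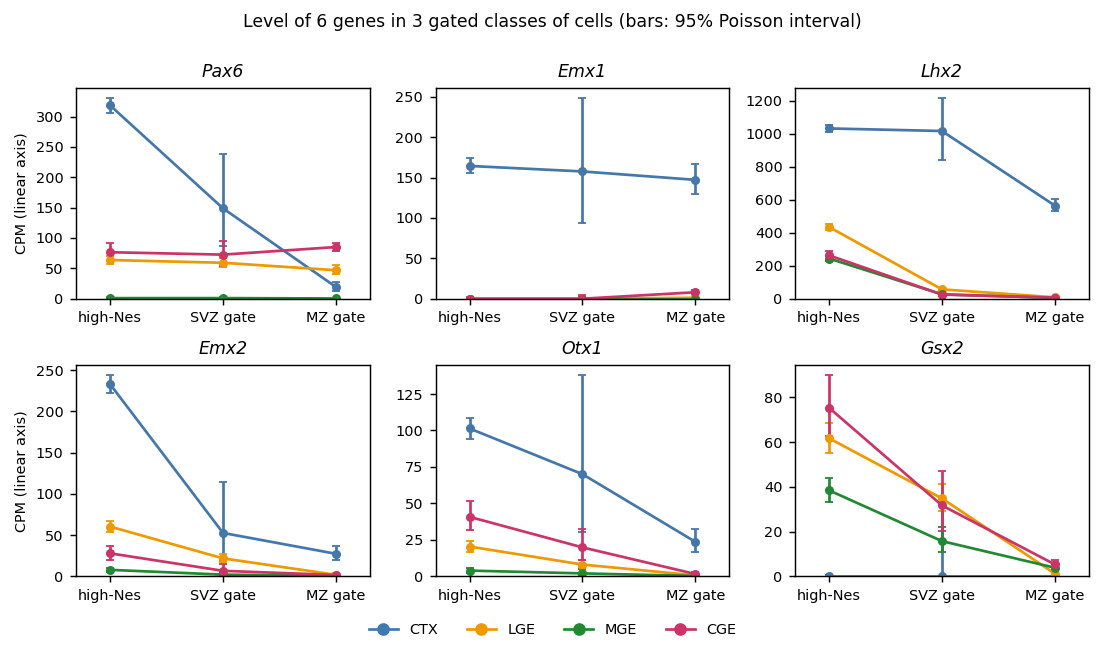
CPM (linear axis, one scale per gene) of Pax6, Emx1, Lhx2, Emx2, Otx1 and Gsx2 in high-Nes cells and in the SVZ and MZ gates of high-Dcx cells, coloured by library, with bars for the exact 95% Poisson interval. Pax6 in CGE stays near its starting level, reaching 85.1 CPM in the MZ gate, while Pax6 in CTX runs from 318 to 19.4 CPM, and Lhx2 in LGE is at 56.5 CPM in the SVZ gate already, beside 1015 CPM for CTX.

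The high-Dcx cells that kept a member were described by the other genes they held, at 3000 UMIs per cell. In LGE, Sp8 was detected in 42.9% [35.1, 50.9] of the high-Dcx cells with Pax6 and in 13.3% of those without, and in CGE in 37.7% [31.8, 44.0] and 12.3%. Pax6 and Sp8 thus met 2.74 and 2.49 times as often as the product of their shares gives. Nkx2-1 was detected in 0.778% [0.0944, 2.78] of the CGE high-Dcx cells with Pax6 and in 7.11% of those without. In CTX, Eomes was detected in 67.6% [55.5, 78.2] of the high-Dcx cells with Pax6 and in 35.3% of those without.

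Glutamatergic and GABAergic markers divided the cells with Emx1 and Lhx2. In CTX, Gad2, a GABA-synthesising enzyme, was detected in 0.662% [0.0803, 2.37] of the high-Dcx cells with Emx1 and in 7.01% of those without, and in 0.850% [0.277, 1.97] and 15.6% by Lhx2. In CGE, only 17 of 2253 high-Dcx cells (0.755%) held an Emx1 UMI. Neurod6, a marker of glutamatergic neurons, was detected in 64.7% [38.3, 85.8] of these 17 cells and in 2.33% of the others, and Gad2 in 11.8% [1.46, 36.4] and 71.1%. The 5 glutamatergic markers summed to 79.8 CPM in the high-Dcx cells of CGE, 33.3 CPM for LGE, 0.275 CPM for MGE and 2490 CPM for CTX, the order in which Emx1 also ran. The part of cells from outside the CGE in this result was not tested.

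Similarity of level was described by Pearson r over the 8 values of each gene (4 libraries, 2 classes, log2(CPM + 1)) among 5137 genes at 50 CPM or more in at least 1 of them. The values share libraries, so r is given as a description with no test. Zfand3 and Zbtb20 were among the 3 genes most like Gsx2 (r = 0.971 and 0.968), Anp32a and Hey1 were most like Lhx2 (0.989 and 0.988), and Tnik was most like Emx1 (0.965). Ppp2r4 and Boc were most like Emx2 (0.981 and 0.976), Msantd3 was most like Otx1 (0.984), and Hibadh was most like both Otx2 (0.971) and Nkx6-2 (0.942). Pax6 had the fewest close neighbours, with 1 gene above 0.9 (Sdf4, 0.916), and Gsx1 had 3 (Rps25, 0.911). Among the members, Otx2 and Nkx6-2 gave 0.956, Emx2 and Otx1 gave 0.939, and Emx1 and Gsx2 gave -0.92.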

How the data were processed

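Single-cell RNA was measured in 4 libraries (CTX, LGE, MGE and CGE), with 1 library per region and therefore no replicate of a region. The deposited values were raw UMI counts per gene and barcode, which the authors made on mm10 with Cell Ranger, given as 3.0.2 by the file headers and as 3.0.0 by the labels. The annotation release was not given in the sources used here. The kit chemistry of each library was also not given. Barcodes held at least 500 UMIs, and their totals were 31451467 to 49794765 UMIs per library.

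A kept barcode had a number of detected genes above 1500 and below 4500, under 5% mitochondrial UMIs and under 1% Hbb UMIs. Doublets, scored against simulated pairs, were removed at 0.8% per 1000 barcodes, which left 3200 to 4755 cells per library. Non-neural cells held at least 3 markers of 1 list and were kept. In shares and co-detection each cell was thinned to 3000 UMIs, which left out 5 to 31 high-Nes cells and 17 to 54 high-Dcx cells per library.

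The class test used edgeR 4.0.16 (R 4.3.3), with DESeq2 1.42.0 as an alternative, on counts summed per library and class, with TMM scaling, Benjamini-Hochberg adjustment and the library as a block. Adjusted p-values set the mean class difference against its spread between libraries of different regions. Ratios of CPM used exact binomial intervals and shares Clopper-Pearson intervals at 95%. All intervals and the limit of 3 counts cover counting error only. Python 3.11.15 with scipy 1.17.1 was used for the rest, and the steps were tested on simulated data. Gene positions came from GENCODE M21 by gene ID without version, which matched 42462 of 43346 features.

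The members, the lists of other regulators and markers and the tests were chosen with earlier results of these data known. Genes named beyond the 9 members were those of the fixed lists of regulators, co-detection partners, antisense genes and markers, and the 3 genes with the highest r to a member. Alternatives changed the gates, the doublet and gene limits, the depth, the pseudocount, the scaling, the test and the libraries. Some results on other regulators are not reported here.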

Additional observations from a re-analysis of the deposited data

How the results depend on the processing

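Of the member levels recomputed under the alternatives, 429 stayed within counting error of the main value and 75 moved, and for the ratios of high-Dcx to high-Nes cells 219 stayed and 69 moved. No called value changed sign. Members highest in LGE numbered 1 rather than 0 with no upper gene limit. Members 2-fold or more higher in MGE than in LGE numbered 1 rather than 0 with a gate of 1.0 and with cells thinned to 3000 UMIs. In CGE over LGE they numbered 2 with a gate of 1.0 and with no upper gene limit, and 1 with doublets kept and with thinned cells. With a gate of 1.0 they numbered 1 rather than 2 in MGE over CGE and 5 rather than 3 in CGE over MGE. Pairs of members below 0.5 of the expected count numbered 1 rather than 0 in LGE with each cell at its own depth (Otx1 and Nkx6-2, 2 cells, 5.41 expected), and 1 rather than 0 in MGE at own depth (Otx2 and Gsx1, 3 cells, 8.09 expected), with no upper gene limit and with cells thinned to 5000 UMIs. The cause was not tested in these cases.

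In the class test, members higher in high-Nes cells numbered 6 in the main setting, 1 with no library block, between 3 (without MGE) and 7 (without CTX) when a library was left out, and 4 to 7 in the other settings (among them the removal of non-neural cells, chosen after seeing the data, with 6), while 0 were higher in high-Dcx cells in all 15 alternatives. Lhx2 was not called without LGE, without MGE or without CGE (adjusted p = 0.0580, 0.0592 and 0.0679 by edgeR), and over its 15 alternatives the adjusted p ran from 5.02e-05 (without CTX) to 0.427 (no library block). Gsx1 was not called with doublets kept, by DESeq2, with no filter or with no library block (adjusted p = 0.0565, 0.0565, 0.0504 and 0.360), over a range of 0.00427 to 0.360 in 11 alternatives. Emx2, Otx1 and Gsx2 lost the call in that last setting only (adjusted p = 0.0817, 0.216 and 0.156 by edgeR), and Pax6 ran from 0.137 to 0.705. The ratio of high-Dcx to high-Nes cells for Pax6 in CGE ran from -0.29 (no upper gene limit) to 0.59 (gate of 2.0) on the log2 scale of CPM + 1. The pairing of the class test is by library, since each region has 1 library and the labels give no replicate number.

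Depth limits the rare genes most, since Gsx1 in LGE, Nkx6-2 in CGE and Pax6 in MGE rest on 5 UMIs or fewer in high-Nes cells, and CGE has the fewest such cells (182).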
